A study of Rattus norvegicus with 3 samples.

Results

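Homeobox transcription factors bind DNA through a helical homeodomain, and in the brain their combinations set which region and which type of neuron or glial cell a progenitor gives rise to. The genes described here are those whose symbol begins with one of 20 family names (Hox, Lhx, Dlx, Nkx, Pou, sine oculis, Pax, Irx, Otx, Emx, Pitx, Meis, Pbx, Shox2, Msx, Gbx, Barhl, Cux, Satb and Zfhx), and the choice used no expression value. They are 128 symbols on 130 rows, out of 26714 symbols on 30957 rows, and where a symbol stood on several rows the one with the highest mean was taken. By their names, 3 of the 128 are not coding homeobox genes: Dlx6as is an antisense RNA, Pou2af1 encodes a coactivator and Six6os1 is an opposite-strand transcript. The rest are called homeobox genes by family name, and whether each encodes a complete homeodomain was not checked.

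The libraries hold messenger RNA of the motor cortex, taken from male rats of the Sprague-Dawley strain that had undergone cerebral ischemia and reperfusion, a loss and return of the brain's blood supply, and that are labelled 8 weeks. Whether this is an age or a time after the operation is not stated. The 3 rats, No. 19, 35 and 70, form 1 group and each has its own animal number, so they were taken as separate animals. No untreated or sham-operated rats were analysed here, so ischemia was not compared with its absence, and with 1 group there is no test and no p-value.

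Many of these factors remain switched on in the adult. Cux, Emx and POU class III factors mark projection neurons of the cerebral cortex, Dlx and Lhx6 mark neurons that release GABA, and Irx, Gbx2, Lhx9 and Shox2 belong to the thalamus and other regions behind the cortex. Hox factors pattern the hindbrain, the spinal cord and the trunk, and Pbx and Meis proteins, called TALE factors after an extended loop in their homeodomain, bind DNA together with other homeodomain proteins.

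Promoters are printed for 6 genes whose values differed most clearly in kind: the paralogs Cux1 and Cux2, which had opposite orders of the rats, Dlx1, which was low in rat 35, Msx1, which was high in rat 35, and Irx1 and Irx2, which were high in rat 70. Each stretch runs from 250 bases before to 50 bases after the annotated start of the gene in RefSeq's table for the rat assembly GRCr8, 5′ to 3′ on the gene's strand. That assembly is not the one used for the expression files, whose gene positions are given below on Rnor 6.0. Capitals mark matches to GGGCGG, the GC box, and to CCAAT, on either strand (CCGCCC and ATTGG on the other).

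Cux1, chr12:25743721-25744020 (+): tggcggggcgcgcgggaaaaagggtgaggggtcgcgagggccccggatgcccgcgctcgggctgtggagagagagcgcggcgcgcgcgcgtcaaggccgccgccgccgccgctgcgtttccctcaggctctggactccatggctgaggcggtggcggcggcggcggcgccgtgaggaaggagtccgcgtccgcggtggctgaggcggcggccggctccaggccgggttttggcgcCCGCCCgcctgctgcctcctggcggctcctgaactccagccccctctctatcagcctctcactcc
Cux2, chr12:40179032-40179331 (+): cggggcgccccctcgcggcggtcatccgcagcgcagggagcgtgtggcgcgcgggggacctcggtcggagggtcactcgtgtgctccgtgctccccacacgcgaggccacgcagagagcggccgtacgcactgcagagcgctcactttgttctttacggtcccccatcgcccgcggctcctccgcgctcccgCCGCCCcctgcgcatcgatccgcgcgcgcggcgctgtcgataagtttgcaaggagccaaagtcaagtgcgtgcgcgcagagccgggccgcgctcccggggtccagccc
Dlx1, chr3:76763614-76763913 (+): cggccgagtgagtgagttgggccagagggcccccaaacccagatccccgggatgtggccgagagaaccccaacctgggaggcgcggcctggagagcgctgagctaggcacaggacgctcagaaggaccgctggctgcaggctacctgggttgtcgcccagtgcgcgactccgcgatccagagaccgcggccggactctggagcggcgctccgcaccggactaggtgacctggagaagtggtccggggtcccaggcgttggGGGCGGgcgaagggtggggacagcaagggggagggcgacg
Msx1, chr14:77185552-77185851 (+): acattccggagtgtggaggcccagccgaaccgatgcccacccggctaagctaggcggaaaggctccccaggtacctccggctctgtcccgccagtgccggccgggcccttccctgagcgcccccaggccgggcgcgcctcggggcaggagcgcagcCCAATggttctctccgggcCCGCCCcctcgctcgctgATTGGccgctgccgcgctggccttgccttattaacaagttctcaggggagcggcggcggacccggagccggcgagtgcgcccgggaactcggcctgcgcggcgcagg
Irx1, chr1:33122872-33123171 (+): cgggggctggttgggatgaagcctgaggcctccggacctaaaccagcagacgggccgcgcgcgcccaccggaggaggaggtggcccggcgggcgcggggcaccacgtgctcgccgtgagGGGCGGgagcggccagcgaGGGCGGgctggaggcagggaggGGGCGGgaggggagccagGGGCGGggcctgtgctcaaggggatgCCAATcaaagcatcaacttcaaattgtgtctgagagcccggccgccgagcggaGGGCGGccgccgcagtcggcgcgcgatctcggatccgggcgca
Irx2, chr1:32494881-32495180 (-): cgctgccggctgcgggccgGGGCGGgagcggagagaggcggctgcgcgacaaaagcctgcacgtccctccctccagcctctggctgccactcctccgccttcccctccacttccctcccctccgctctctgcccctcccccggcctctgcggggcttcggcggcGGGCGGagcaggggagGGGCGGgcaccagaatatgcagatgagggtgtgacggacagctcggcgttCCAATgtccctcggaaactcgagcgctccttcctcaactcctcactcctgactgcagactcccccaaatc

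Cux1, Cux2, Dlx1 and Msx1 each held 1 GC box, Irx2 held 3 and Irx1 held 5, so the opposite orders of Cux1 and Cux2 came with the same count of this motif. The table had a promoter for 79 of the 128 genes. Of these, 52 (65.8%) held GGGCGG, against 33.1% of all 33469 promoters of the same length, and their median GC content was 63.0%, against 51.7%. CCAAT was found in 35 of 79 (44.3%, against 37.5% of all promoters) and TGACAG, the site of Meis-type factors, in 17 of 79 (21.5%, against 19.0%). TAATTA, the core bound by many homeodomains, was found in 1 of 79 (1.27%, against 5.36%). All 4 motifs were searched on both strands, and none of them contains another. No promoter is printed for Shox2, Lhx9, Dlx2, Dlx5, Dlx6, Emx2, Meis2, Otx1, Pbx3, Pou3f3 and Zfhx4.

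Values are given in FPKM, which divides a gene's fragments by its length in kilobases and by the size of the library, so levels of different genes can be set side by side. From the steps between low values, the libraries rested on about 15560000, 16460000 and 16050000 fragments in rats 19, 35 and 70, and 1 FPKM on a gene of 1 kb on 15.6, 16.5 and 16.0 fragments. Listed zeros may be failed estimates, since Hprt1, Rps6 and Rpl8, which every cell uses, were listed at 0 in all rats. Rat 35 stood apart from the others by markers that are not homeobox genes. Its summed FPKM over 9 neuronal markers was 65.2, against 1350 in rat 19 and 1952 in rat 70, and over 5 markers of fibroblasts and meninges it was 2646, against 240.0 and 215. Microglial markers summed to 541, 1394 and 435 in rats 19, 35 and 70. Rat 70 carried the highest sum of 5 thalamic markers (52.0, 52.0 and 236) and of Ttr, the thyroid hormone carrier of the choroid plexus (33.1, 0.173 and 362). In bulk tissue, fewer cells of a type and less RNA per cell cannot be told apart, and this holds for every value that follows.

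Of the 128 genes, 36 (28.1%) had a mean of 1 FPKM or more, against 52.3% of all 26714 symbols. In at least 1 rat 86 (67.2%) were above 0, as were 18791 of all 26714 symbols, while 42 were listed at 0 in all rats. The number at 1 FPKM or more was 34 in rat 19, 27 in rat 35 and 39 in rat 70. These are 26.6%, 21.1% and 30.5%, against 52.0%, 50.1% and 50.7% of all symbols. Together the genes made up 233, 194 and 214 FPKM, which is 0.0423%, 0.0364% and 0.0434% of each library's sum. Differences between rats are given on log2(FPKM + 1), which understates them for low genes. On this scale 25 of the 36 genes differed over 2-fold between the highest and the lowest rat, or 69.4%, against 42.5% of the 13967 genes at a mean of 1 FPKM or more. With no minimum on the level, 31 of the 86 genes above 0 did so, or 36.0%, against 33.2% of all genes above 0. For the 36 genes at a mean of 1 FPKM or more, the median SD over the rats was 0.79, against 0.45 for the 13967 genes at that level. Without rat 35, 6 of 35 differed over 2-fold between rats 19 and 70, or 17.1%, against 10.9% of all genes. Among these were Meis2, Nkx2-2 and Pbx3, higher in rat 19, and Shox2 and Lhx9, higher in rat 70.

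Rat 35 was the lowest rat for 22 of the 36 genes (61.1%, against 36.6% of all genes) and the highest for 9 (25.0%, against 45.5%). Rat 19 was the highest for 19 (52.8%, against 24.6%) and the lowest for 3 (8.33%, against 19.4%). For rat 70 the counts were 8 highest (22.2%, against 29.9%) and 10 lowest (27.8%, against 44.0%). The order from rat 19 through rat 70 to rat 35 was found in 15 of 36 genes, or 41.7%, against 14.2% of all genes. For Satb1, Pou3f3 and Dlx5 the values of rats 19 and 70 were so close that at least 2 of 3 ways of rescaling the libraries made rat 70 the highest, and for Zfhx4 the same held between rats 35 and 70.

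**Figure D1:**
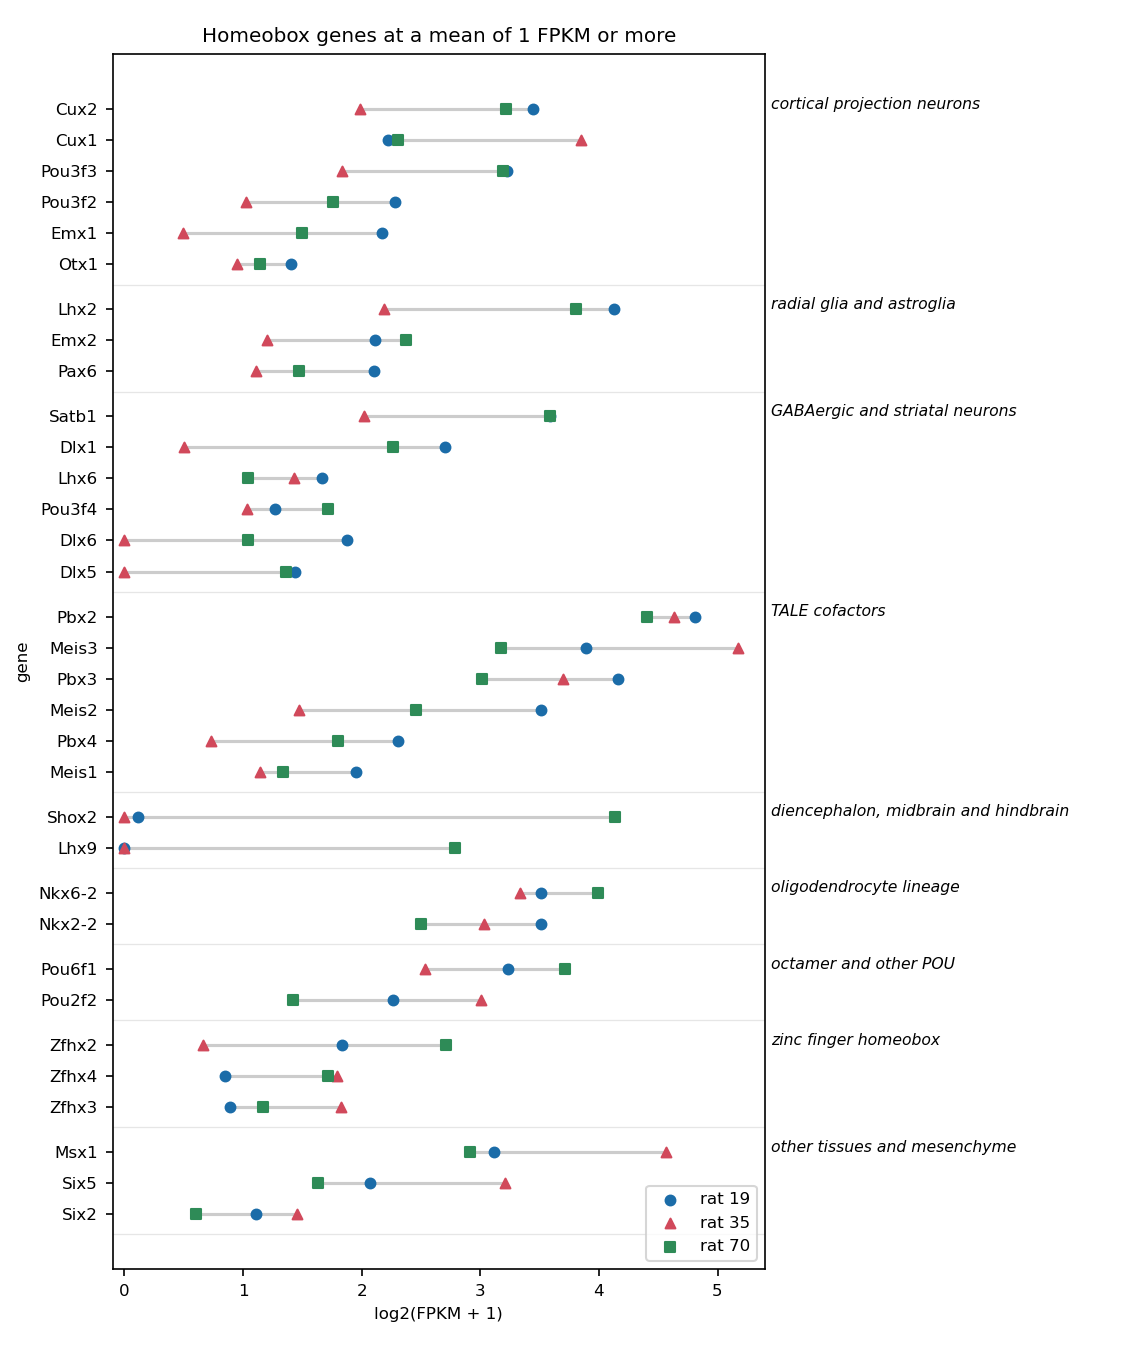
Level of 33 homeobox genes at a mean of 1 FPKM or more, as log2(FPKM + 1) on the horizontal axis, with 1 symbol per rat and genes grouped by role on the vertical axis. The symbol of rat 35 lies leftmost for 20 genes and rightmost for 8, and Shox2 and Lhx9 are raised in rat 70 alone.

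Factors of cortical projection neurons were measured at a mean of 1 FPKM or more for all 7 genes of that class. For 6 of them the lowest rat was 35 and the highest 19, an order found in 14.2% of all genes. Cux2, a factor of upper-layer neurons that shapes their dendrites (chromosome 12, 40018937 to 40219291), was at 9.89, 2.96 and 8.27 FPKM in rats 19, 35 and 70, a mean of 7.04 ± 3.63 (SD, n = 3). Its paralog Cux1, an upper-layer factor that is also found in many other cell types (chromosome 12, 23151180 to 23445074), was at 3.67, 13.4 and 3.94 FPKM (6.99 ± 5.52). The means of the paralogs were nearly equal, and rat 35 was the lowest for Cux2 and the highest for Cux1. The ratio of Cux1 to Cux2 was therefore 0.371, 4.52 and 0.476.

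Tbr1, a factor of deep-layer cortical neurons with a T-box in place of a homeobox, was at 14.0, 0.0297 and 3.51 FPKM. Slc17a7, Camk2a and the other excitatory markers summed to 486, 28.2 and 936 FPKM, so rat 70 had the highest sum of this list but not the highest Tbr1.

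Pou3f3 and Pou3f2, POU factors that act in the formation of upper-layer neurons, had the same rat lowest. Pou3f3 was at 8.36, 2.56 and 8.12 FPKM (6.35 ± 3.28) and Pou3f2 at 3.86, 1.03 and 2.38 FPKM (2.43 ± 1.42). Their ratio, Pou3f3 over Pou3f2, was 2.16, 2.49 and 3.40, the narrowest range of the 10 pairs plotted. Emx1, which marks the embryonic precursors of the cortex and their excitatory descendants, was at 3.50, 0.405 and 1.82 FPKM (1.91 ± 1.55), a ratio of 8.64 between the highest and the lowest rat. Otx1, a factor of deep-layer neurons, differed least, at 1.65, 0.935 and 1.21 FPKM (1.27 ± 0.359). The median deviation of the class from each gene's 3-rat mean was 0.56, -0.80 and 0.07 on the log2 scale. That of the neuronal markers was 1.23, -2.81 and 1.88, so rat 35 was lowest for both lists, while the highest was rat 19 for the homeobox class and rat 70 for the markers. The part of neuronal content in these values was not tested.

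Lhx2, Emx2 and Pax6, factors of radial glia that also persist in astroglia, were all lowest in rat 35, as were 36.6% of all genes. Lhx2, which keeps cortical progenitors in their cortical fate (chromosome 3, 22640545 to 22658446), was at 16.5, 3.57 and 13.0 FPKM (11.01 ± 6.67). Emx2, which sets the size of cortical areas, was at 3.34, 1.298 and 4.18 FPKM (2.94 ± 1.48), with rat 70 highest. Pax6, the paired-box factor of eye and cortex, was at 3.29, 1.16 and 1.78 FPKM (2.07 ± 1.10). Emx1 and Emx2 were thus nearly equal in rat 19, with a ratio of 1.05, while Emx2 exceeded Emx1 in rats 35 and 70 (0.312 and 0.435). Astrocyte markers summed to 2311, 806 and 1082 FPKM, most of it Gfap (1878, 564 and 688 FPKM). Of the 6 markers 4 were lowest in rat 35, while 2, Aqp4 and Aldh1l1, were lowest in rat 70. Their part in the values of Lhx2, Emx2 and Pax6 was not tested.

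Genes of GABAergic and striatal neurons numbered 10, of which 6 reached a mean of 1 FPKM. Of these 6, 5 were lowest in rat 35, against 36.6% of all genes at that level. Dlx1 (chromosome 3, 58164931 to 58169521) was at 5.52, 0.419 and 3.80 FPKM (3.25 ± 2.60), a ratio of 13.2 between rat 19 and rat 35. Its neighbour Dlx2, on the opposite strand with 10.6 kb between the ends of the gene bodies, was at 1.74, 0 and 1.12 FPKM, just under the mean of 1. Dlx5 and Dlx6, another such pair with 10.5 kb between them on chromosome 4, were at 1.71, 0 and 1.57 FPKM and at 2.68, 0 and 1.06 FPKM. The antisense RNA Dlx6as overlaps Dlx6 and was at 1.07, 0 and 0.303 FPKM, and because no source used here says that counting used strand, fragments of the overlap cannot be assigned to one or the other. The 6 coding Dlx genes together had 11.6, 0.479 and 7.55 FPKM, so that nearly all of what rat 35 had was Dlx1.

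Lhx6, which directs neurons of the medial ganglionic eminence to become Pvalb and Sst interneurons, did not share this pattern. It was at 2.18, 1.70 and 1.06 FPKM (1.65 ± 0.564), lowest in rat 70, and its ratio to Dlx1 was 0.395, 4.06 and 0.278. Satb1, a chromatin-organizing factor of interneurons and T cells, was at 11.06, 3.06 and 11.02 FPKM (8.38 ± 4.60), nearly equal in rats 19 and 70. Pou3f4, found in the striatum and the inner ear, was at 1.41, 1.05 and 2.29 FPKM (1.58 ± 0.641). Six3, a factor of the anterior forebrain and of striatal neurons, lay below the mean of 1 at 0.729, 0.0237 and 1.14 FPKM, and Nkx2-1, a selector of the medial ganglionic eminence, was at 0.280, 0.0264 and 0.0814 FPKM. Inhibitory markers summed to 308, 23.6 and 226 FPKM, with all 6 lowest in rat 35. Sst made up much of the sum in rat 19 (205, 13.8 and 45.0 FPKM), and 4 of the 6 were highest in rat 70 and 2 in rat 19. Striatal markers summed to 107, 23.6 and 57.7 FPKM. Of the 6 striatal markers at a mean of 1 FPKM or more, 4 were highest in rat 19. Adora2a was highest in rat 35 (2.66, 3.08 and 1.93 FPKM) and Ppp1r1b in rat 70 (36.7, 13.7 and 44.6 FPKM). Whether these markers account for the Dlx values was not tested.

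TALE factors were the most abundant class, and all 7 reached a mean of 1 FPKM. Pbx2 (chromosome 20, 4357733 to 4362682) had the highest mean of all 128 genes and the smallest SD on the log2 scale (0.20) of the 36, at 27.1, 23.9 and 20.2 FPKM (23.7 ± 3.44). Pbx3 was at 16.9, 11.97 and 7.06 FPKM (11.96 ± 4.90), lowest in rat 70 like Pbx2. Pbx4, lowest in rat 35, was at 3.95, 0.658 and 2.48 FPKM (2.36 ± 1.65).

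Among the Meis genes, the partners of Pbx proteins, the paralogs parted. Meis3 (chromosome 1, 78068931 to 78079862) was at 13.8, 35.0 and 8.02 FPKM (18.9 ± 14.2), highest in rat 35. Meis2, expressed in striatal and other forebrain neurons (chromosome 3, 107559997 to 107760589), was at 10.4, 1.78 and 4.51 FPKM (5.58 ± 4.43), lowest in rat 35. The ratio of Meis3 to Meis2 was 1.32 and 1.78 in rats 19 and 70 and 19.7 in rat 35. Meis1 followed Meis2 with less spread, at 2.87, 1.21 and 1.52 FPKM (1.87 ± 0.881).

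**Figure D2:**
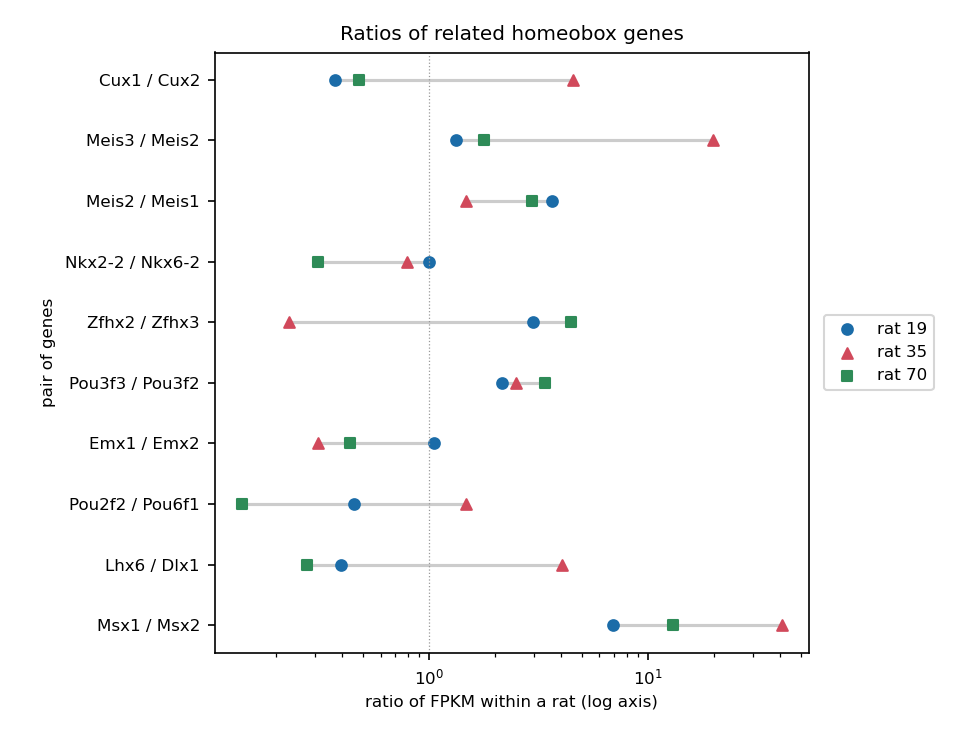
Ratio of the FPKM of paralogs or related homeobox genes within each rat, on a logarithmic horizontal axis, with 1 symbol per rat and the dotted line at a ratio of 1. Cux1 over Cux2, Meis3 over Meis2 and Lhx6 over Dlx1 are highest in rat 35 (4.52, 19.7 and 4.06), and Nkx2-2 over Nkx6-2 is lowest in rat 70 (0.311).

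The oligodendrocyte lineage is marked by Nkx6-2, a factor of myelinating cells, and Nkx2-2, which acts when precursors begin to differentiate. Nkx6-2 (chromosome 1, 211922389 to 211923929) was at 10.4, 9.11 and 14.95 FPKM (11.5 ± 3.07). Nkx2-2 (chromosome 3, 141408798 to 141411170) was at 10.4, 7.20 and 4.65 FPKM (7.42 ± 2.89). The ratio of Nkx2-2 to Nkx6-2 was 1.0 in rat 19, 0.79 in rat 35 and 0.311 in rat 70, so the genes were equal in rat 19 and Nkx6-2 was the higher one in the others. Myelin markers summed to 3522, 3003 and 5123 FPKM, highest in rat 70 like Nkx6-2, while the 3 precursor markers differed among themselves. Pdgfra, which fibroblasts also express, was at 22.9, 152 and 39.1 FPKM and Cspg4 at 6.06, 11.7 and 5.88 FPKM, both highest in rat 35, whereas Gpr17 was at 41.3, 37.0 and 54.3 FPKM, highest in rat 70 like Nkx6-2.

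The remaining POU factors and the zinc finger homeobox genes also differed from one another. Pou6f1, a POU factor of brain, was at 8.38, 4.79 and 12.1 FPKM (8.42 ± 3.65), and Pou2f2, an octamer factor best known from B cells, at 3.80, 7.04 and 1.68 FPKM (4.17 ± 2.70). Rat 35 was thus the lowest for the one and the highest for the other, and their ratio, Pou2f2 over Pou6f1, was 0.453, 1.47 and 0.139. Pou2f1, its broadly expressed relative, was at 0.706, 0.910 and 1.18 FPKM. Pou2af1, the B cell coactivator of octamer factors, was at 0.178, 0.192 and 0.0493 FPKM, and the B cell markers Cd79b and Ms4a1 were under 0.5 FPKM in every rat. Of the genes listed as T cell markers, Cd3e stayed low, at 0.428, 1.35 and 0.359 FPKM, while Cd8a was at 6.30, 46.4 and 4.22 FPKM. Both were highest in rat 35 as Pou2f2 was, and so were all 5 microglial markers. Which cells the Cd8a came from, and the part of any of them in the values of Pou2f2, was not tested.

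Zfhx2, which encodes a very large neuronal protein, was at 2.56, 0.585 and 5.54 FPKM (2.89 ± 2.50). Its relatives Zfhx3 and Zfhx4 had, as deposited, their lowest value in rat 19 and their highest in rat 35, at 0.855, 2.55 and 1.25 FPKM (1.55 ± 0.885) and at 0.803, 2.47 and 2.28 FPKM (1.85 ± 0.913). The ratio of Zfhx2 to Zfhx3 was 2.99, 0.23 and 4.44, a 19.3-fold range and the widest of the pairs compared.

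Genes known mainly from other tissues and from mesenchyme had rat 35 at the top where they reached a mean of 1 FPKM. Of 22 genes in this class 4 (18.2%) did so, against 52.3% of all symbols. All 4 had their highest value in rat 35 and their lowest in rat 70, an order that 33.6% of all genes share. Of the 11 lower genes of the class above 0, 6 (54.5%) were highest in rat 35, against 41.7% of all genes above 0. Among these 6, Nkx3-2, Dlx3, Dlx4 and Pax5 rested on as few as 1 or 2 fragments in rat 35. Msx1, a target of bone morphogenetic proteins in mesenchyme and developing skull (chromosome 14, 77712240 to 77716059), was at 7.69, 22.7 and 6.54 FPKM (12.3 ± 9.01). Six5, which lies beside the myotonic dystrophy kinase gene in mammals, was at 3.21, 8.26 and 2.10 FPKM (4.52 ± 3.28). Six2, a factor of kidney progenitors, was at 1.16, 1.74 and 0.516 FPKM (1.14 ± 0.612).

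Msx2, the paralog of Msx1, did not share its order, at 1.11, 0.553 and 0.505 FPKM, and the ratio of Msx1 to Msx2 was 6.95, 41.0 and 13.0. Six4, a factor of developing muscle, was at 0.0969, 1.09 and 0.887 FPKM, with rat 70 near rat 35. The median deviation of the class was -0.26, 0.97 and -0.65. Fibroblast and meningeal markers deviated by -1.15, 2.19 and -1.20 with the highest value in the same rat, among them Foxc1 at 8.17, 33.8 and 4.75 FPKM and Col1a1 at 72.8, 754 and 80.6 FPKM. Their part in the values of Msx1, Six2 and Six5 was not tested.

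**Figure D3:**
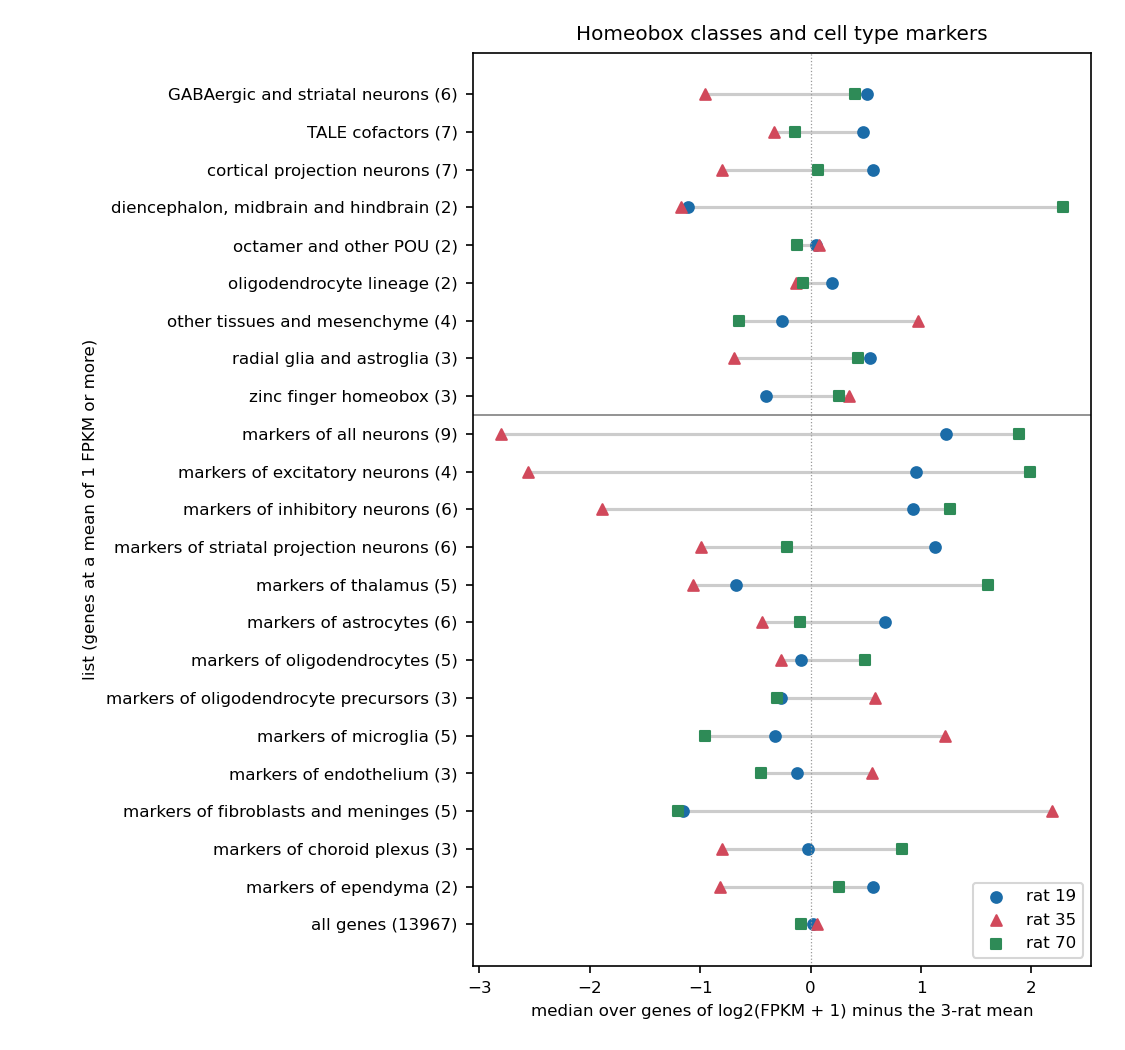
Median over the genes of each list of log2(FPKM + 1) minus that gene's 3-rat mean, with 1 symbol per rat, homeobox classes above the grey line and cell type markers and all genes beneath it; numbers in brackets give the genes at a mean of 1 FPKM or more. Rat 35 is lowest for factors of cortical projection neurons (-0.80) and for neuronal markers (-2.81) and highest for factors of other tissues (0.97) and for fibroblast markers (2.19).

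Factors of the diencephalon, midbrain and hindbrain numbered 29. Of these, 2 (6.9%, against 52.3% of all symbols), Shox2 and Lhx9, had a mean of 1 FPKM or more, which both reached through rat 70 alone. Shox2, known from the limb, the sinoatrial node and the thalamus (chromosome 2, 164118191 to 164126783), was at 0.0828, 0 and 16.5 FPKM. The fewest whole fragments that give these values are 2, 0 and 412. Lhx9, a factor of the thalamus, pretectum and gonad (chromosome 13, 55861015 to 55878094), was listed at 0 in rats 19 and 35 and was at 5.90 FPKM in rat 70. In rat 70, Shox2 exceeded every other homeobox gene of the list except Pbx2.

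Of the 29 genes, 22 were above 0 in at least 1 rat, and 14 of these 22 were highest in rat 70. The share was 63.6%, against 29.6% of all genes above 0. Lhx9, Lhx5, Lhx1, Pax3 and Lhx4 were above 0 in rat 70 alone, so passing this filter already made them highest there. Among the 20 with a mean under 1 FPKM, 12 were highest in rat 70, against 28.6% of all such genes and 18 (36.0%) of the 50 homeobox genes of that level. After rescaling to a common sum 14 of 22 were again highest in rat 70, against 36.3% of all genes. The other 7 genes (Gbx1, Nkx1-1, Nkx2-4, Pax7, Pou4f1, Pou4f2 and Six6) were listed at 0 in all rats.

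Iroquois genes, which pattern the caudal forebrain, midbrain and spinal cord, made up 6 of the 14. Irx2 (chromosome 1, 33271977 to 33275540) was at 0.0451, 0 and 1.53 FPKM, on at least 1, 0 and 35 fragments. Irx1, on the same chromosome, was at 0.356, 0 and 1.12 FPKM. Irx3 was at 0.164, 0.233 and 0.636 FPKM and Irx5 at 0.120, 0.0569 and 0.506 FPKM, while Irx4 and Irx6 stayed at or below 0.1001 FPKM in every rat. The family summed to 0.712, 0.313 and 3.94 FPKM.

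Gbx2, which in mouse is required for the differentiation of thalamic neurons, was at 0.307, 0.174 and 0.655 FPKM, on at least 5, 3 and 11 fragments. Barhl2, a factor of diencephalon and retina, was at 0.0821, 0 and 0.358 FPKM. Lhx5, Lhx1, Pax3 and Lhx4 were listed at 0 in rats 19 and 35 and were between 0.0534 and 0.231 FPKM in rat 70, each on as few as 1 fragment. Genes that did not follow rat 70 included Lhx3, a motor neuron and pituitary factor, at 0.595, 0.0468 and 0.288 FPKM, and Nkx6-1, at 0.260, 0.303 and 0.0582 FPKM. Pou2f3, an octamer factor of skin and of tuft cells outside this class, was also highest in rat 70, at 0.107, 0.160 and 1.28 FPKM.

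Each of the 5 thalamic markers was also highest in rat 70. Slc17a6, the vesicular glutamate transporter of thalamic and other subcortical neurons, was at 1.73, 0.0147 and 28.7 FPKM. Prkcd, a kinase of thalamic relay neurons, was at 18.15, 42.7 and 153 FPKM, with rat 35 above rat 19. Tcf7l2, a thalamic factor that oligodendrocytes also express, was at 18.95, 6.85 and 27.3 FPKM, and Calb2 and Rora were at 12.7, 0.569 and 24.6 FPKM and at 0.456, 1.80 and 2.77 FPKM. Choroid plexus markers summed to 36.0, 2.96 and 367 FPKM, with Ttr nearly all of it in rats 19 and 70. Clic6 was also highest in rat 70 (0.842, 0.0682 and 2.32 FPKM), whereas Folr1 (1.57, 2.09 and 2.03 FPKM) and Kl (0.452, 0.633 and 0.633 FPKM) were not raised over rat 35. The labels call all 3 samples motor cortex, and the part of thalamic or choroid plexus tissue in these values was not tested.

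**Figure D4:**
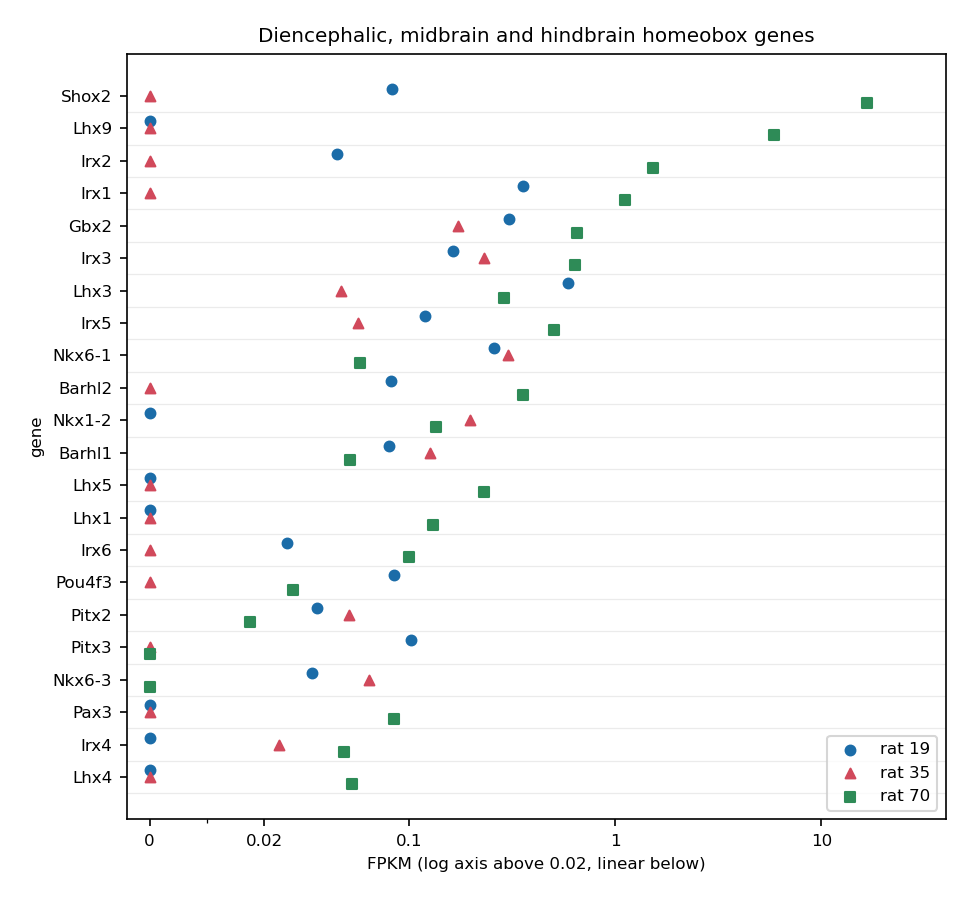
FPKM of the 22 diencephalic, midbrain and hindbrain homeobox genes that were above 0 in at least 1 rat, with 1 symbol per rat, on an axis that is linear from 0 to 0.02 FPKM and logarithmic above. Rat 70 is highest for 14 of the 22, with Shox2 at 16.5 and Lhx9 at 5.90 FPKM.

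Hox genes, the factors of hindbrain and spinal cord, were at or near 0. None of 35 reached a mean of 1 FPKM, against 52.3% of all symbols, and 26 were listed at 0 in all rats. The other 9 (25.7%) were above 0 in at least 1 rat, as were 18791 of all 26714 symbols. The family summed to 0.179, 0.832 and 0.193 FPKM. The highest value was that of Hoxb4 (chromosome 10, 84167331 to 84169907), at 0.551 FPKM in rat 35 and listed at 0 in the others. This value rests on 1 fragment only if the counted length is 110 bp, and on more fragments at a greater length. At 15.6 to 16.5 fragments per FPKM on 1 kb, a gene of that length below 0.193, 0.182 and 0.187 FPKM in rats 19, 35 and 70 had fewer than 3 fragments, and the other 8 Hox genes seen lay below these levels, each on as few as 1 to 3 fragments in a rat. Over all classes, 41 of the 128 genes were above 0 but under 1 FPKM in every rat, and the highest single value among them was that of Pax4, a factor of pancreatic islet cells, at 0.759, 0.1103 and 0.0566 FPKM.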

How the data were processed

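Messenger RNA of the motor cortex was sequenced in 1 library for each of 3 rats. The deposited values are FPKM. According to the labels' design text, the authors normalized fragment counts per gene and turned them into FPKM by a Perl script, by a normalization not given in the sources used. The submitters' processing notes list HISAT2 2.0.4 and StringTie 1.3.0 as tools and Rnor 6.0 as build, with no roles.

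FPKM was used as deposited, with Python 3.11.15, numpy 2.4.6 and pandas 2.3.3, and figures with matplotlib 3.10.9. Genes were summarised as log2(FPKM + 1) where their mean was at least 1 FPKM. A list's deviation in a rat is the median over its genes of that value minus the gene's mean over 3 rats. Depth was recovered from ratios of low values, and 53.5% of 600 drawn genes had a length up to 20000 bp giving whole fragments in all rats within 0.005, against 3.0% after random changes, so only the fewest possible fragments are quoted. Scripts were tested on simulated data. Named genes were, per class, the 3 with the highest mean and the 3 with the largest SD at a mean of 1 FPKM, and those reaching 1 FPKM in any rat, except some that are not reported here but enter the counts; Pax4, Gbx2, Barhl2 and the other low genes, the neighbours and the printed promoters were chosen after values were seen. Members, classes and 14 marker lists were chosen with earlier results of these data known. The alternatives were another pseudocount or minimum, 3 rescalings, summed rows and each rat left out. Promoters come from RefSeq on GRCr8 and were not mixed with Rnor 6.0 positions.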

Additional observations from a re-analysis of the deposited data

How the results depend on the processing

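Of 112 values recomputed for 11 results under 11 alternatives, 93 stayed within 1.5 times the count or 1 SD of the deviation reported, and 19 moved. Leaving out 1 rat gave between 6 and 18 genes over 2-fold, in place of 25 of 36 (42.5% of all genes). The counts were 18 of 34 without rat 19 (37.3% of all genes), 6 of 35 without rat 35 (10.9%) and 17 of 33 without rat 70 (26.2%). The highest minus lowest class deviation, over the rats left out in turn, ranged from 0.258 to 1.394 for cortical projection neurons (1.365 with all rats), from 0.319 to 1.174 for radial glia (1.236), from 0.367 to 1.57 for GABAergic and striatal neurons (1.469) and from 0.322 to 1.614 for other tissues (1.614), each lowest without rat 35. It ranged from 0.192 to 0.616 for TALE factors (0.808) and from 0.084 to 0.935 for zinc finger genes (0.747), lowest without rat 19. A pseudocount of 0.1 gave 2.629 for GABAergic, 1.198 for zinc finger and 6.643 for diencephalic genes (3.46 with a pseudocount of 1). The diencephalic values come from 2 genes, Shox2 and Lhx9, which passed the minimum through rat 70 alone, so their size follows from that filter. At a mean of 5 FPKM or more, 15 genes were left, of which 12 differed over 2-fold (40.8% of all genes at that level). Of the 15, 9 were lowest (36.9% of all genes) and 3 highest (45.3%) in rat 35, and Lhx2 alone gave 1.935 for radial glia. With no minimum, 31 of 86 genes differed over 2-fold, against 33.2% of all genes, so the excess over all genes seen at a mean of 1 FPKM or more was nearly gone, and 36 were lowest (35.3% of all genes) and 26 highest (41.7%) in rat 35, and the class deviation was 0.138 for diencephalic genes and 0.142 for other tissues, since low genes then outnumber the others. A common sum without mitochondrial genes raised low genes past the minimum and gave 38 of 45 over 2-fold (46.5% of all genes). The other causes were not tested. The 14 diencephalic genes highest in rat 70 became 16 of 21 without rat 19 (46.2% of all genes) and 15 of 22 without rat 35 (41.2%), against 29.6% with all rats, alternatives chosen after seeing the data. These counts include Lhx9, Lhx5, Lhx1, Pax3 and Lhx4, which were above 0 in rat 70 alone. No paired analysis was possible because there is 1 group. With 3 animals, no group of controls and 42 of 128 genes at 0 and 41 more under 1 FPKM in every rat, about 16.0 fragments per kilobase and FPKM limit what the low genes can show.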

Other observations

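Homeobox genes outside the families described above were most often highest in rat 35 and lowest in rat 70, as were all genes at a mean of 1 FPKM or more. Of 76 such symbols listed, 73 were in the files and 24 had a mean of 1 FPKM or more, of which 14 differed over 2-fold (42.5% of all genes). Rat 35 was the highest for 14 of the 24 (45.5% of all genes) and rat 70 the lowest for 13 (44.0%). Those with the highest means were Hopx, a small homeodomain protein without DNA binding, at 39.9, 53.5 and 21.7 FPKM in rats 19, 35 and 70, Adnp at 37.4, 29.7 and 37.2 FPKM, Zeb2 at 28.5, 37.5 and 41.3 FPKM, Prrx1 at 9.97, 63.3 and 9.46 FPKM and Zhx1 at 19.1, 18.8 and 25.5 FPKM.

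Mesenchymal and vascular factors among them varied most. Prrx1, a factor of fibroblasts and limb mesenchyme, was highest in rat 35, and so was Alx4, a factor of craniofacial mesenchyme, at 1.69, 10.3 and 1.43 FPKM. Hhex, a factor of endothelium and liver, was at 7.77, 20.5 and 3.47 FPKM. Endothelial markers summed to 99.9, 156 and 83.3 FPKM, also highest in rat 35, and their part in these values was not tested. Prox1, a factor of dentate granule cells, thalamus and lymphatic vessels, had the other order, at 2.33, 1.80 and 10.2 FPKM, highest in rat 70 like Shox2 and Lhx9.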
